A study of Mus musculus with 26 samples.

Results

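The cytosolic ribosomal protein genes were described in sorted lung group 2 innate lymphoid cells (ILC2s) of the mouse. They were chosen by symbol, as protein-coding genes named Rpl or Rps with a number, plus Rplp0, Rplp1, Rplp2 and Rpsa, and the Rps6k kinases and pseudogenes were left out. The rule found 82 genes off chromosome 16 among the 55401 gene identifiers of the count tables, 49 of the large subunit and 33 of the small subunit, on 18 chromosomes. A further 3 genes that match by name, Rpl24, Rpl35a and Rpl39l, lie on chromosome 16 and were kept apart. The rule itself used no measured value, but it was set with earlier results of these data known.

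The ribosome makes all cellular protein, and each of its subunits is built from ribosomal RNA and a large set of proteins that are needed in equal numbers. Their transcripts are among the most abundant of most cells, and many begin with a run of pyrimidines through which mTOR adjusts their translation to growth signals. The genes are spliced and mostly present once, but their messenger RNAs have been copied back into mammalian genomes many times as intronless processed pseudogenes, so that short reads from one gene can match other places.

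RNA was sequenced in bulk from ILC2s of female mice in 2 experiments that differed in sorting gate, strain and culture. Naive ILC2s were sorted as lineage-, CD90+, CD127+, CD25+, ICOS+ cells from lungs of 3 wild-type C57BL/6J mice, the strain of the reference genome, and from 3 mice of CC030/GeniUnc (here CC030), an inbred mouse line bred from the founders of the Collaborative Cross, and were processed without culture. In the second experiment, ILC2s of 5 CC030 mice were sorted as CD90+, CD127+, ST2+ cells. The study paired vehicle and agonist by mouse, and the labels give each mouse number in all 4 conditions. That day 2 and day 6 share mice rests on these labels alone. All cultures held 10 ng/mL of IL-33, 10 ng/mL of TSLP and 100 U/mL of human IL-2, with 10 µM AR420626, an agonist of the short-chain fatty acid receptor FFAR3, or with DMSO as vehicle, and were harvested at day 2 or day 6.

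Counts in genes per library were 13533363 to 15234305 in naive C57BL/6J, 1324595 to 1524751 in naive CC030, 1139210 to 5320028 with vehicle at day 2, 227445 to 1171015 with AR420626 at day 2, 1143405 to 3420893 with vehicle at day 6 and 1080761 to 1420240 with AR420626 at day 6. The 12 markers of ILC2s all had at least 10 counts in every naive C57BL/6J library and summed to 10980 to 12950 CPM, or counts per 1000000 counts in genes. In the CC030 libraries the same markers summed to 55.1 to 323 CPM, and Cxcr6 was at 0 in all 23. In naive CC030, 8 of the 12 had at least 10 counts in every library, and the 12 summed to 265 to 291 CPM. There, 7 T cell markers summed to 170 to 206 CPM and 5 macrophage and neutrophil markers to 136 to 190. The labelled cell type was thus plain in the C57BL/6J libraries but not clearly set apart by the counts listed for CC030. Per the study's methods, C57BL/6J reads were aligned to mm10, whereas those of CC030 were aligned to a pseudogenome on mm9 whose coordinates were then converted. The values of all CC030 groups are therefore given after those of C57BL/6J and beside a check of gene positions. In the cultured libraries, 2.06 to 11.1% of the reads entered by HTSeq were in genes. At day 2 the vehicle libraries of mice 1 and 5 and the AR420626 libraries of mice 4 and 5 stood apart, the first of them with the highest share of counts under ribosomal pseudogenes of its group, the second with the most counts, and the last pair with 19356 and 27775 genes with a count against 43124 to 44975 in mice 1 to 3. In bulk libraries, fewer cells of a type and less RNA per cell cannot be told apart.

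The sequences that matter here are the starts of the transcripts and the copies in the genome. The first set shows 15 bases to each side of the transcript start, 5′ to 3′ on the gene's strand, from RefSeq on GRCm38.p6. Capitals mark the longest pyrimidine run of at least 5 bases that begins with C within 10 bases of the start. Rpl27a, Rpl35, Rpl15 and Rpl13a are examples of long runs, Rps6 is an intermediate case, Rplp0 has none, and Rpl10l is a copy of Rpl10 without introns.
Rpl27a, chr7:109519180-109519209, + strand: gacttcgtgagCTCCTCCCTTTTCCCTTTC
Rpl35, chr2:39005117-39005146, - strand: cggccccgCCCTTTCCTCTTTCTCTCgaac
Rpl15, chr14:18270972-18271001, - strand: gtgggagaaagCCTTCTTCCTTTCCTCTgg
Rpl13a, chr7:45128731-45128760, - strand: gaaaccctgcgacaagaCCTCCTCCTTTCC
Rps6, chr4:86857353-86857382, - strand: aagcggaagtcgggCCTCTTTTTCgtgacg
Rplp0, chr5:115559452-115559481, + strand: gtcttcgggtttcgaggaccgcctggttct
Rpl10l, chr12:66284387-66284416, - strand: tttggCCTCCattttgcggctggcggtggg

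A promoter entry in RefSeq was matched for 62 of the 82 genes. Such a run of at least 5 bases was present in 38 of them, or 61.3%, and in 34.4% of all 27025 genes with an entry. The median longest run was 6 bases in ribosomal protein genes and 4 in all genes. Between 250 bases before and 50 after the start, on either strand, CCGGAAG, the core bound by ETS factors, was in 40.3% of the ribosomal protein genes against 9.93% of all genes, and AAGATGGC, the core of the YY1 motif, in 8.06% against 3.19%. Close to the start, CTTTC was present in 22.6% against 3.68%. These are matches of letters in one window and say nothing of binding.

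The second set shows why counts of one gene can be listed under another. It gives bases 121 to 180 of the coding sequence of the Rps27 family, with capitals where Rps27l differs from Rps27, and the first 60 coding bases of Rps6 and Rps16, each identical in a pseudogene. Coding sequences are from GENCODE vM21 transcripts on GRCm38.
Rps27: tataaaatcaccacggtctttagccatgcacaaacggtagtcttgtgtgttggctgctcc
Rps27rt: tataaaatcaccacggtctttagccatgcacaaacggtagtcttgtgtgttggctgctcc
Rps27l: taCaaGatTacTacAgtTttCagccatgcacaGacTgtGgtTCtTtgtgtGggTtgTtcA
Rps6 and Rps6-ps4: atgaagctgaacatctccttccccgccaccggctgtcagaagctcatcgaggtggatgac
Rps16 and Rps16-ps2: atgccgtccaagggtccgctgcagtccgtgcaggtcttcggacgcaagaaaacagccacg

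Rps27 (chr3:90212522-90213651) and Rps27rt (chr9:114982366-114982739), a copy of it counted as a protein-coding gene, had the same 252 coding bases. Rps27l (chr9:66946086-66949516), a paralog induced by p53, differed from Rps27 at 60 of those bases and at 17 of the 60 shown. Rpl10 and Rpl10l differed at 98 of 642 coding bases, and Rpl36a and Rpl36al at 39 of 318.

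In naive C57BL/6J ILC2s, ribosomal protein transcripts were abundant as a group and very unequal among themselves. They took 3.54%, 3.67% and 2.54% of all counts in genes in libraries 1, 2 and 3, with a mean of 3.25% ± 0.615 (SD, n = 3). A count was present for 81 of the 82 in each library. On a scale of counts per exonic kilobase, set to sum to 1000000 per library and called the level from here on, the median ribosomal protein gene was at 125 with an interquartile range of 26 to 517, whereas the median of all protein-coding genes was 0.304. Levels were at least 1000 for 13 genes, from 100 to 1000 for 33, from 10 to 100 for 25 and under 10 for 11. At or above the 90th percentile of protein-coding genes lay 56 of the 82, and 1, Rpl10l, lay under the 50th. The 12 genes with most counts held 56.33% of all ribosomal protein counts.

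Genes of both subunits were among those with high levels. Rplp1, one of the acidic proteins of the stalk that recruits translation factors, was at 3468, 3611 and 2496 in libraries 1, 2 and 3, with a mean of 3192 ± 607 (SD, n = 3). Rpl32, a large-subunit protein (chr6:115805505-115808747), was at 3357, 3316 and 2682. The ranges of Rplp1 and Rpl32 overlapped, so their order was not resolved. Rps15, a small-subunit protein, was at 2123, 2170 and 1534, below both in every library. Across the ordered list, 4 of 81 neighbouring pairs did not overlap.

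The genes of the stalk and of the named reference set spread over the upper part of the range. Rplp0, the base of the stalk and a common reference gene for RNA levels (chr5:115559467-115563727), was at 1226, 1208 and 1931. Rplp2, the partner of Rplp1, was at 291, 288 and 274, below Rplp0 and Rplp1 in every library although the stalk holds Rplp1 and Rplp2 in equal numbers. Rpl4, a core protein of the large subunit near the exit tunnel (chr9:64173375-64178666), was at 1211, 1256 and 1619, and Rps3, which lines the entry of the messenger RNA channel (chr7:99477896-99483738), was at 550, 622 and 684. By level, Rpl4 and Rplp0 overlapped, and Rps3 was below both in every library. This order depends on the length used. Mean CPM per coding kilobase was 2214 for Rps3, 1453 for Rplp0 and 1258 for Rpl4, so there Rps3 was the highest. Rplp2 stayed below Rplp1 on that scale, at 1005 against 2774. Rpsa, the small-subunit protein also known as the laminin receptor, was at 192, 169 and 287.

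Genes with well-known further roles were spread over the range. Rps6, the protein phosphorylated by S6 kinases downstream of mTOR, was at 30.3, 18.7 and 13.5. Rpl5 and Rpl11, which with 5S ribosomal RNA bind the p53 inhibitor Mdm2, had mean levels of 10.7 and 19.1. Rps19, the gene most often affected in Diamond-Blackfan anaemia, had a mean level of 494. Rps6, Rpl5 and Rpl11 thus lay under the median of the group and Rps19 above it, in the same libraries. All coding windows of the first 3 occur in other genes too, as described further on.

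Paralogs were listed at widely different levels. Rpl3l, a paralog of Rpl3 that is best known from heart and skeletal muscle, was at 3.87, 0.335 and 0.239 against 32.5, 32.1 and 94.6 for Rpl3, and lay below it in every library. Rpl10l, known from the testis, was at 0 in all 3 libraries, and Rpl10 at 15.3, 4.23 and 35.4. Rpl7 and Rpl7l1 had mean levels of 606 and 109, while Rpl22 and Rpl22l1 were near each other at 114 and 109. In the Rps27 family the mean level was 33.0 for Rps27, 875 for its coding copy Rps27rt and 743 for Rps27l. The first pair of these has identical coding bases, so the split of reads between them is uncertain. By its mean, Rps10 was the lowest gene with counts, at 0.102, 0.571 and 0.963, and Rpl3l was lower than it in libraries 2 and 3.

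**Figure D1:**
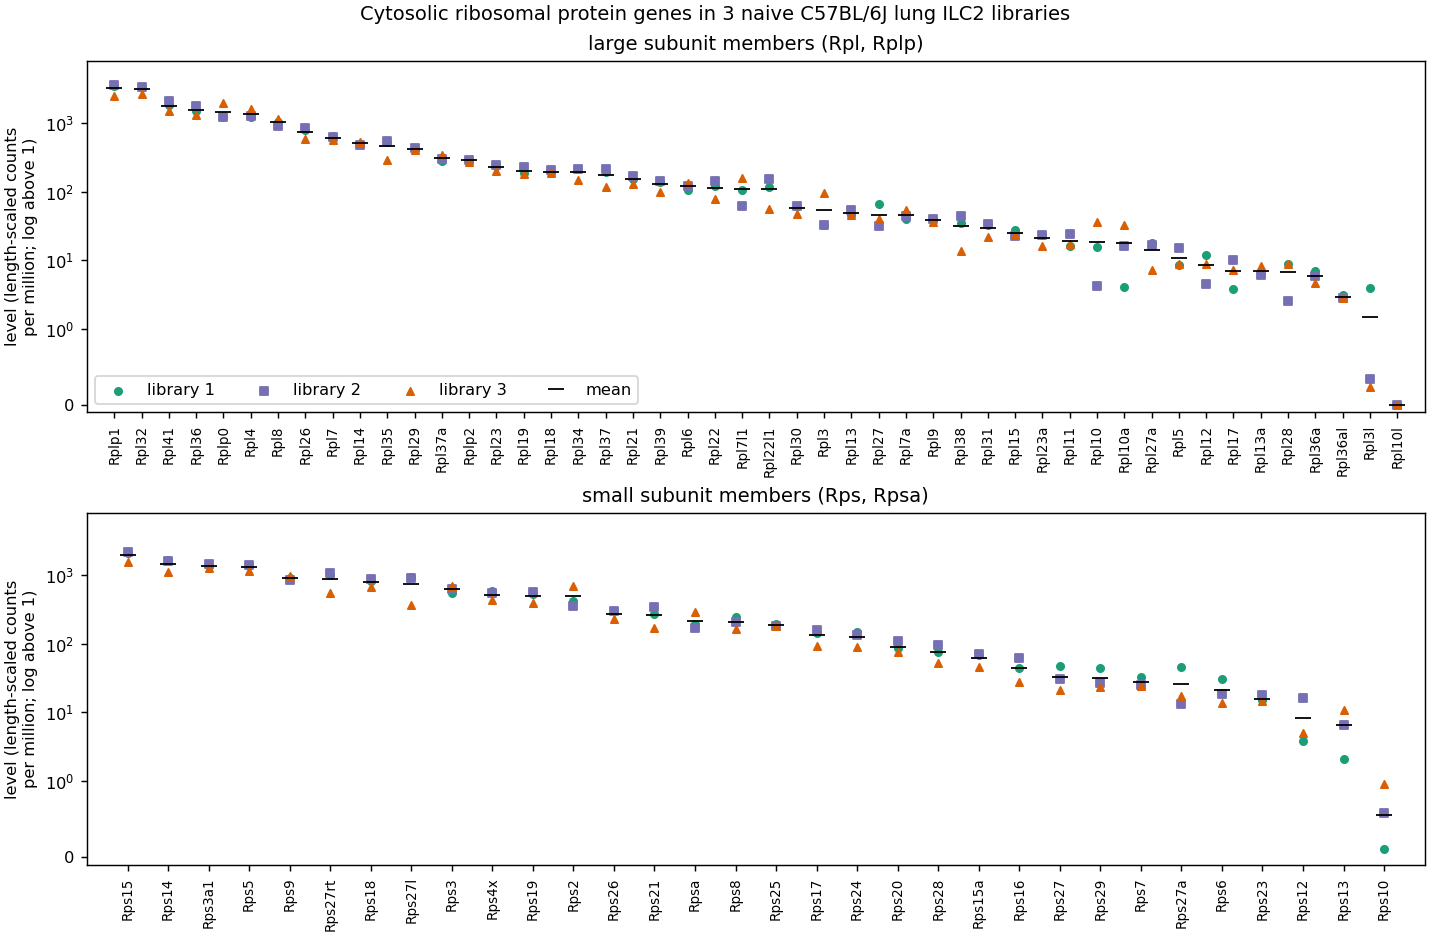
Level of 80 of the 82 ribosomal protein genes in the 3 naive C57BL/6J libraries, in counts per exonic kilobase scaled to 1000000 per library on a log axis, with genes ordered by mean level. Rplp1, Rpl32 and Rps15 sit near the top, Rps10 lies near the bottom and Rpl10l is at 0.

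The 3 naive C57BL/6J libraries did not share one profile. Library 3 was the lowest of the 3 for 49 and the highest for 14 of the 70 ribosomal protein genes that had at least 100 counts in each library. Among 5426 protein-coding genes with that many counts, it was the lowest for 22.9% and the highest for 58.5%. The median ratio of library 3 to the mean of libraries 1 and 2 was 0.776 for ribosomal protein genes and 1.40 for protein-coding genes.

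The ratio followed the length of the coding sequence. It had a median of 0.667 in 24 genes with under 400 coding bases, 0.822 in 31 genes with 400 to 700 and 1.21 in 15 genes with 700 or more. Library 3 was the lowest for 23, 22 and 4 genes of these classes. Across the 70 genes, which share the same 3 libraries, Spearman's rho of the ratio was 0.63 with coding length and 0.32 with exon length, and over all 5426 protein-coding genes the rho with exon length was 0.056. Library 3 also held 11300 CPM of Sftpc, the surfactant protein of alveolar type 2 cells, and 967 CPM of Lyz2. The 3 epithelial markers summed to 56.1, 29.3 and 11360 CPM in libraries 1, 2 and 3, and the 5 markers of macrophages and neutrophils to 0.148, 12.8 and 970 CPM. Their part in the profile of library 3 was not tested.

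Replicate spread differed from gene to gene. The median coefficient of variation of the 70 genes was 18.8%. Rplp2 had the smallest at 3.13%. Rps27a, a fusion of ubiquitin and a ribosomal protein, had one of the largest at 70.6%, with levels of 46.1, 13.0 and 17.3, and Rpl3 had 67.8%.

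The low end of the list coincided with genes whose sequence also lies elsewhere. Each window of 100 bases of the coding sequence was looked up in all other annotated genes, and the share of windows found again was taken as a measure of copies. In 25 genes under 50% of windows were shared, and their median level was 735 with 23 genes at 100 or more. In 26 genes with 50 to 90% shared, the median was 202 and the range 45.5 to 1528. In 30 genes with 90% or more shared, the median was 19.9, and Rps27rt alone reached 100. Spearman's rho of the level with the shared windows was -0.67 across 81 genes, which share libraries and are not independent. The coding sequence of Rpl41 is too short for a window. Spearman's rho with exon length was -0.24, with coding length -0.04 and with GC content of the coding sequence 0.19. With the share of exon bases that overlap exons of other genes, rho was -0.21.

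**Figure D2:**
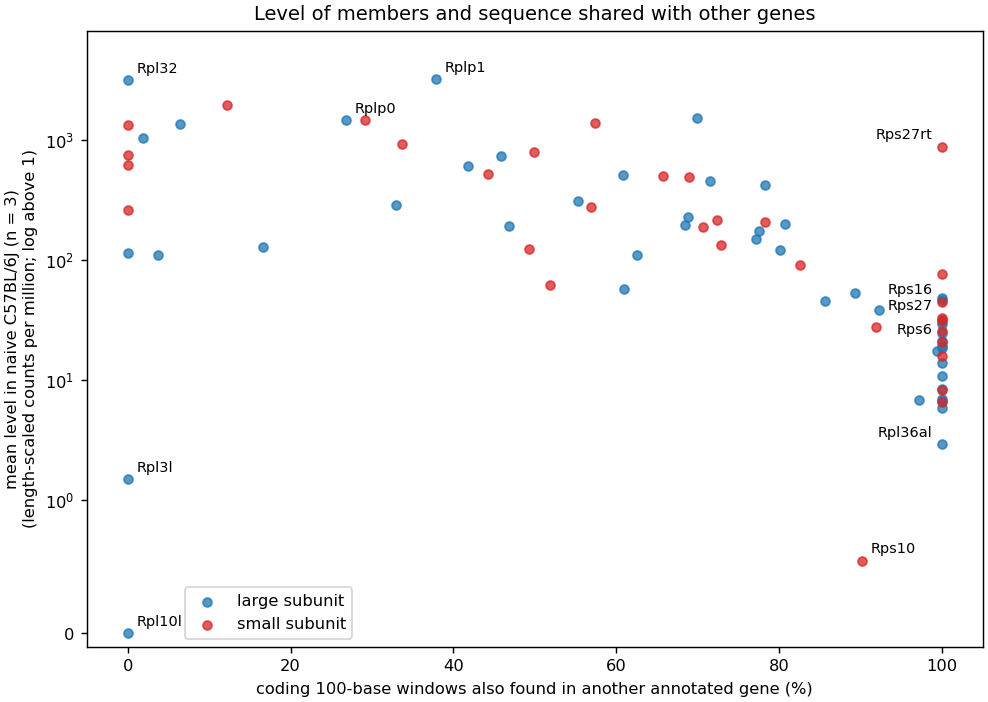
Mean level of ribosomal protein genes in naive C57BL/6J (log axis) against the percent of its coding windows of 100 bases that also occur in another gene. Genes with 90% or more of windows shared sit at a median of 19.9, against 735 for genes with under 50%.

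A copy of at least 97% identity was found for 70 of the 82 genes, with 329 pseudogene copies in all, and 101 of these had a mean of at least 100 counts in naive C57BL/6J. Counts of the copies together exceeded those of the gene itself for 33 genes. In the 30 genes with 90% or more of windows shared, this held for 24, and the counts of the copies summed to 106000 against 12810 for the genes. It held for 9 of the 26 genes in the middle class and for 0 of the 25 with under 50%. The 12 genes without such a copy had a median level of 886 and the 70 with one a median of 99.5.

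Single pairs show how far the counts can lie apart. Rps6 (chr4:86854660-86857412) had 408, 269 and 164 counts in libraries 1, 2 and 3, while its pseudogene Rps6-ps4 (chr2:75191073-75191822), identical over all 747 coding bases, had 10531, 12141 and 8294. Rps16 (chr7:28350652-28353155) had 476, 723 and 267 counts against 12068, 13175 and 6165 for Rps16-ps2 (chr5:129128077-129128517), which is identical over all 438 coding bases. In both pairs the pseudogene was higher in every library by more than 10 times. Rpl5 and Rpl11 had means of 359 and 436 counts, against 6595 and 4762 for their copies together.

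Other pairs were split in other ways. Rps10 had 2, 12 and 17 counts and its copy Rps10-ps2 on chromosome 16 had 2559, 3391 and 2619. Rpl14 had 7024, 7126 and 6744 against 7258, 7283 and 7162 for Rpl14-ps1. Counts of this pair lay within 10% of each other in each library. Rps19 had 20804, 23948 and 14198 counts, and its copy Rps19-ps6 had fewer in each library, with 9292, 10429 and 5565.

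**Figure D3:**
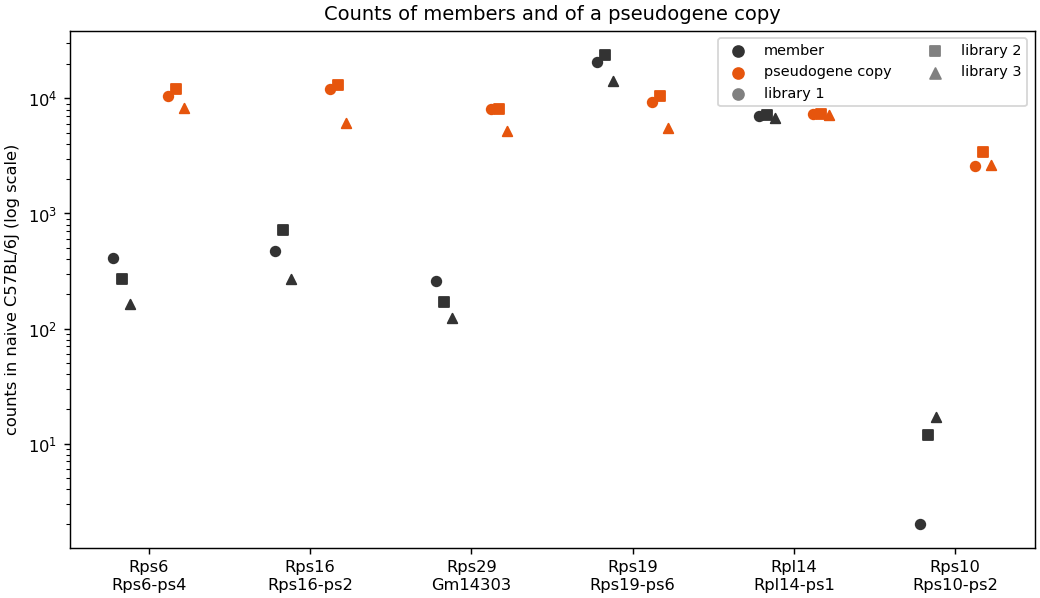
Counts of 6 ribosomal protein genes and of 1 pseudogene copy each in the 3 naive C57BL/6J libraries, on a log axis, with symbols for libraries. The copy is far above the gene for Rps6, Rps16, Rps29 and Rps10, close to it for Rpl14, and below it for Rps19.

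Adding the counts of the copies to those of the gene narrowed the range, a form of the measure chosen after the data were seen. Added counts can only raise a value, and relative to a gene's own counts they were largest where most windows were shared. A narrower range and a weaker rho were thus in part built into this form and do not show where reads came from. Per coding kilobase, the SD of log2 values over 80 genes fell from 2.66 to 1.61, and the ratio of the 90th to the 10th percentile went from 93.1 to 10.5. Spearman's rho with shared windows went to -0.43. Reads of a gene and of an identical copy cannot be told apart from these counts, so the low values of Rps6 and Rps16 cannot be read as levels of their transcripts alone. Rps10-ps2 is 99% identical to the coding bases of Rps10. Of the exon bases of Rps10, 20.55% also overlap exons of other genes on the same strand, RPS10-NUDT3 among them. Its low value cannot be read as a transcript level either, and the part of each was not tested.

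In CC030 libraries the share of counts under ribosomal protein genes was far lower. Naive CC030 libraries held 0.123%, 0.128% and 0.113%, with a mean of 0.121% ± 0.00758 (SD, n = 3). The cultured libraries held 0.0343 to 0.0980% with vehicle at day 2, 0.0881 to 0.113% with AR420626 at day 2, 0.0539 to 0.0691% with vehicle at day 6 and 0.0465 to 0.0666% with AR420626 at day 6. The lowest C57BL/6J library was above the highest CC030 library by more than 10 times, and each naive CC030 library was above every cultured library.

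The order of the genes was also lost. The median ribosomal protein gene lay at a percentile of 94.6 to 96.8 among protein-coding genes in naive C57BL/6J libraries, of 43.5 to 55.3 in naive CC030 and of 20.5 to 54.1 in the cultured libraries. Spearman's rho of the 82 levels with those of naive C57BL/6J was -0.12 in naive CC030 and between -0.01 and 0.09 in the 4 cultured groups.

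Gene positions were checked on all protein-coding genes, by chromosome. With all genes of a chromosome included, rho of levels with naive C57BL/6J was 0.43 on chromosome 16 in naive CC030, 0.69 and 0.70 with vehicle and AR420626 at day 2, and 0.83 and 0.81 at day 6. The other 19 chromosomes had medians from 0.28 to 0.31 and highest values from 0.44 to 0.46, so that 1 of them was above chromosome 16 in naive CC030 and 0 in the cultured groups. With genes of at least 10 counts in every naive C57BL/6J library, chromosome 16 had -0.20, 0.16, 0.24, 0.55 and 0.49 in the same order, and the others had medians from -0.21 to -0.12. By this measure chromosome 16 was 10th of 20 in naive CC030 and highest in each cultured group. Counts listed for ribosomal protein genes off chromosome 16 in CC030 are therefore values at a symbol, not shown to be those of its transcript.

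Rpl13a and Rpl18, which lie on chromosome 7, were at 0 in all 23 CC030 libraries. Within 500 kilobases of Rpl13a, all 62 protein-coding genes were at 0 in these libraries too, 30 of which had at least 10 counts in every naive C57BL/6J library. Around Rpl18 this held for all 53, 17 of them with such counts.

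Between the naive strains, 70 of the 82 ribosomal protein genes were lower in CC030, 3 were higher and 9 did not pass the test. The background was 12.2% lower, 64.1% higher and 76.3% either way among 35551 genes tested with edgeR's quasi-likelihood test at an adjusted p under 0.05. The median log2 fold change of the 82 genes was -5.05, or -4.80 with genes at 0 set to their bound, and that of all genes tested was 7.03. Most abundant genes went the same way. Of 1988 protein-coding genes at or above the 90th percentile of level in C57BL/6J, 1971 or 99.1% were lower in CC030 with a median of -4.34, and all 56 ribosomal protein genes in that range were lower with a median of -6.31. Of 5426 protein-coding genes with at least 100 counts in each C57BL/6J library, 61.4% were lower, and of the 70 ribosomal protein genes among them 68 or 97.1% were. Both sets were picked by high values in C57BL/6J alone, which favours genes that are lower in CC030. These shares therefore serve as a background only.

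Rplp0 had 17263, 18225 and 24465 counts in C57BL/6J and 23, 16 and 17 in CC030. Its log2 fold change on TMM-normalized counts was -7.91 (SE 0.453, adjusted p = 0.000446 from edgeR). Its mean CPM was 1382 in C57BL/6J and 13.1 in CC030, a smaller difference, so the size depends on the scaling. Rpl4 had 20631, 22927 and 24824 counts against 20, 28 and 25, a log2 fold change of -7.76 (SE 0.423, adjusted p = 0.000446 from edgeR). Rps3 had 20944, 25334 and 23428 counts against 61, 71 and 60, with -6.40 (SE 0.411, adjusted p = 0.000446 from edgeR). The groups were far apart for all 3 reference genes. By CPM, without TMM scaling, Rpl18 was at least 221-fold lower in CC030 and Rpl13a at least 4.03-fold, against a floor of 3 counts per library.

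The 3 genes that were higher in CC030 were those with almost no counts in C57BL/6J. Rpl3l was at 3.99, 0.347 and 0.197 CPM in C57BL/6J and at 39.3, 41.3 and 39.4 CPM in CC030, with a log2 fold change of 3.44 (adjusted p = 0.0319 from edgeR). Rps10 was at 0.148, 0.832 and 1.12 CPM against 6.04, 17.3 and 9.18, with 2.78 (adjusted p = 0.0117 from edgeR). Rpl10l was at 0 in C57BL/6J and at 9.81, 3.33 and 3.28 CPM in CC030, at least 26.2-fold higher (adjusted p = 0.00105 from edgeR). None of the 3 overlapped between strains. The call for Rps10 was lost with the replicate number as a block and without CC030 replicate 2, and that for Rpl3l without C57BL/6J replicate 2 or without any 1 CC030 library.

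Other lists of the translation machinery differed among themselves, where 12.2% of all genes tested were lower and 64.1% higher. All 16 elongation factors and other genes with pyrimidine starts were lower in CC030 with a median log2 fold change of -3.94, and so were 70 of 74 mitochondrial ribosomal protein genes, with a median of -3.89. Of 20 genes for nucleolar steps and ribosome assembly, 7 were lower and 2 higher with a median of -0.43, and of 15 genes that control translation, 4 were lower and 5 higher with a median of 0.72. In naive C57BL/6J, Eef1a1, which brings transfer RNA to the ribosome, led its list at a mean level of 1569. Median levels there were 88.85 for that list and 82.5 for the mitochondrial ribosomal proteins. They were 13.9 for the nucleolar and assembly genes and 3.56 for the genes that control translation. The lists with higher levels were thus those with most genes lower, as for abundant genes in general, so a difference by function is not shown.

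**Figure D4:**
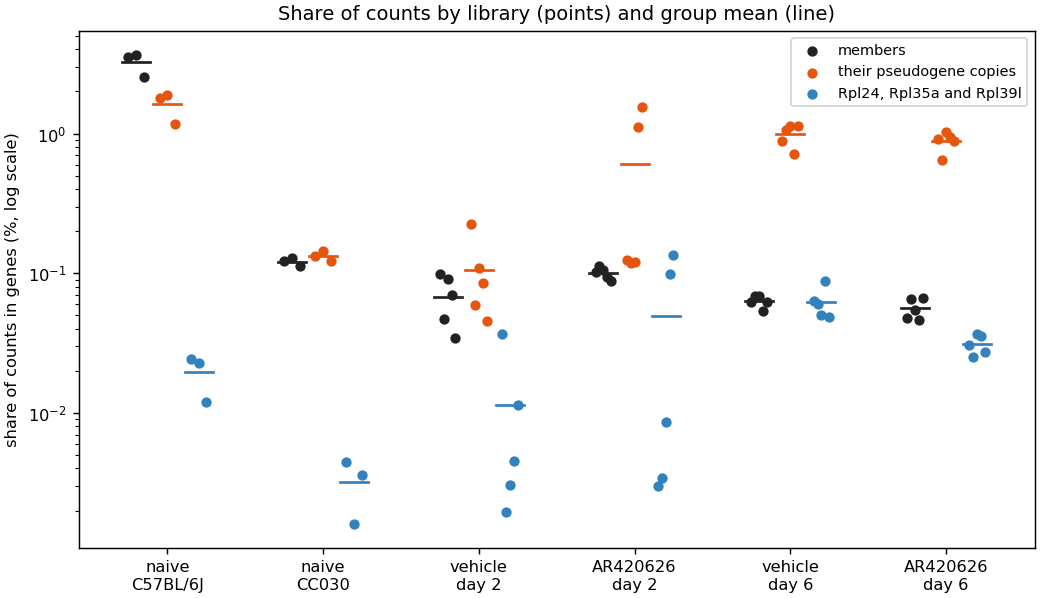
Percent of counts in genes under the 82 ribosomal protein genes and under their pseudogene copies (orange), 1 point per library in each of the 6 groups, on a log axis. The genes fall from 2.54 to 3.67% in naive C57BL/6J to at most 0.128% in CC030 libraries, and the copies reach 0.644 to 1.14% at day 6.

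While counts listed under the genes were low in cultured CC030 libraries, those listed under some of their pseudogene copies were not. Copies took 1.17 to 1.89% of counts in naive C57BL/6J, 0.123 to 0.143% in naive CC030, 0.0457 to 0.225% with vehicle at day 2, 0.119 to 1.55% with AR420626 at day 2, 0.709 to 1.14% with vehicle at day 6 and 0.644 to 1.02% with AR420626 at day 6. The 6 copies with most counts in vehicle at day 6 held 93.57% of copy counts there and 4.66% in naive C57BL/6J, where the 6 highest copies of that group itself held 28.9%. Rpl19-ps11 was at 281 to 423 CPM in naive C57BL/6J, 1.33 to 4.53 in naive CC030 and 2662 to 4269 with vehicle at day 6. Rpl27-ps3, identical to the coding bases of Rpl27, was at 7.09 to 22.3 CPM in naive C57BL/6J and 1704 to 3527 with vehicle at day 6. Counts at day 6 were thus concentrated in a few copies. The same 6 copies held 36.98% of copy counts with vehicle and 78.36% with AR420626 at day 2, where Rpl19-ps11 was at 0 to 4289 CPM with AR420626. Rpl19-ps11 and Rpl27-ps3 were named for their high counts at day 6, so their lack of overlap with the naive groups carries no weight. Both lie off chromosome 16, where CC030 counts were not shown to follow gene positions. Of the same 6 copies, Rps10-ps2 and Gm49594, a copy of Rpl15, lie on chromosome 16. Rps10-ps2 was at 172 to 235 CPM in naive C57BL/6J and 995 to 1228 with vehicle at day 6. Gm49594 was at 4.00 to 7.77 and 208 to 694 CPM. These 2 were likewise picked for their high counts at day 6.

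AR420626 against vehicle asked whether the FFAR3 agonist changed the cultured cells. At day 2, 39 ribosomal protein genes could be tested and 0 passed, where the background was 0% of 20865 genes by edgeR, with 403 genes at an unadjusted p under 0.05. DESeq2 called 15 genes, of which 0 were ribosomal protein genes. The median log2 fold change of the 39 genes was -0.24 and that of all genes tested -0.22. Rpl14 alone had an unadjusted p under 0.05 (log2 fold change 1.63, SE 0.635, adjusted p = 1 from edgeR). In mouse order it was at 1.67, 4.29, 12.3, 9.43 and 1.13 CPM with vehicle and at 17.9, 21.3, 14.8, 123 and 17.6 with AR420626. The groups did not overlap, and mouse 4, whose AR420626 library was the smallest, was far above the others. Without mice 4 and 5, an alternative chosen after seeing the data, 0 of 50 genes tested passed.

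At day 6, 11 ribosomal protein genes were tested, of which 3 were lower with AR420626 and 0 higher, where 8.14% and 3.30% of 9421 genes were called in these directions. The 11 genes had a median log2 fold change of -0.47 and all genes tested one of 0.10. Rpl27, a large-subunit protein, was at 79.0, 42.8, 39.4, 103 and 40.4 CPM with vehicle and at 15.8, 20.4, 33.5, 25.1 and 31.5 with AR420626 (log2 fold change -1.35, SE 0.318, adjusted p = 0.00454 from edgeR). Rpl26, which also binds the p53 messenger RNA, was at 22.8, 9.31, 13.1, 23.7 and 17.8 against 5.83, 1.41, 9.04, 2.51 and 15.7 (-1.66, SE 0.521, adjusted p = 0.0353 from edgeR). Rplp0 was at 11.1, 21.1, 18.4, 24.5 and 26.2 against 8.33, 2.82, 5.43, 15.04 and 14.8 (-1.36, SE 0.44, adjusted p = 0.0416 from edgeR). Each was lower in 5 of 5 mice, and the groups overlapped for Rpl26 and Rplp0 but not for Rpl27. Leaving out mouse 1 ended all 3 calls, leaving out mouse 2 or 4 left that of Rpl27, and leaving out mouse 3 or 5 ended that of Rplp0.

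The chromosome 16 genes Rpl35a and Rpl24 were also lower with AR420626 at day 6, by log2 fold changes of -1.15 (adjusted p = 0.00157 from edgeR) and -1.11 (adjusted p = 0.00602 from edgeR). Rpl35a was lower in 5 of 5 mice without overlap. Rpl24 was lower in 5 of 5 mice by CPM but higher in 1 after TMM scaling, and its groups overlapped, at 86.2 to 203 CPM with vehicle and 41.6 to 97.5 with AR420626. All coding windows of Rpl27 and Rpl24 are shared with other genes, 56.7% of those of Rpl35a, 45.8% of those of Rpl26 and 26.8% of those of Rplp0. Of the exon bases of Rpl24, 47.0% also overlap exons of another gene. Rpl27-ps3 was at 2083 to 3093 CPM with AR420626 and 1704 to 3527 with vehicle, and its part in the values of Rpl27 was not tested. The difference of the AR420626 effect between day 6 and day 2 was called for 0 of 44 ribosomal protein genes, where 0.0519% of 23141 genes passed by edgeR, 0.0389% positive and 0.0130% negative. Without mice 4 and 5 it was called for 0 of 53. Rpl14 and Rpl15 had an unadjusted p under 0.05, and DESeq2 also called 0 of them.

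Time in culture was compared within each treatment, with the mouse as a block. From day 2 to day 6 with vehicle, 5 of 21 ribosomal protein genes tested were higher and 0 lower, where 13.6% and 3.73% of 15819 genes were called. The medians of the log2 fold changes were 0.33 and -0.33. Rpl27 was at 20.9, 4.29, 14.04, 22.01 and 1.13 CPM at day 2 and rose at day 6 to the values above (log2 fold change 3.65, SE 0.643, adjusted p = 0.00119 from edgeR). Rplp0 was at 10.9, 6.24, 17.6, 6.29 and 0.752 at day 2 (2.55, SE 0.537, adjusted p = 0.00393 from edgeR). Both rose in 5 of 5 mice, Rpl27 without overlap.

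Rpl3, which shapes the peptidyl transferase centre, was at 60.3, 14.4, 18.4, 20.4 and 15.8 CPM at day 2 and at 147, 119, 145, 139 and 125 at day 6 with vehicle (log2 fold change 3.45, SE 0.823, adjusted p = 0.00825 from edgeR). It rose in 5 of 5 mice without overlap. Rpl13 and Rpl27a rose in 5 of 5 mice by CPM and in 4 of 5 after TMM scaling, which the test uses, by 2.91 (adjusted p = 0.0266 from edgeR) and 1.66 (adjusted p = 0.0411 from edgeR). Leaving out mouse 5, whose day 2 library was the deepest, gave 10 calls, 8 higher and 2 lower, as did leaving out mice 1 and 5, and leaving out mouse 1, 2, 3 or 4 gave 2 or 3. The 3 epithelial markers summed to 4.32 to 23.4 CPM at day 2 and 18.03 to 36.6 at day 6, with Sftpc and Scgb1a1 among the genes called higher, and their part was not tested. Of the coding windows, 89.3% of Rpl3 and all of Rpl13 and Rpl27a are shared with other genes.

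With AR420626, 3 of 22 ribosomal protein genes tested were higher at day 6 than at day 2 and 2 were lower, where 10.0% and 1.14% of 14731 genes were called. Rpl27 was higher in 5 of 5 mice, by a log2 fold change of 2.25 (adjusted p = 0.0206 from edgeR). Rpl13 was higher in 3 of 5 mice by CPM and in 5 of 5 after TMM scaling, by 2.04 (adjusted p = 0.0314 from edgeR). Rpl3l was higher in 3 of 5 mice by CPM and in 4 of 5 after TMM scaling, at 16.8, 29.0, 23.2, 101 and 146 CPM at day 2 and 97.5, 102, 112, 89.4 and 95.3 at day 6 (2.28, adjusted p = 0.0448 from edgeR). The groups of Rpl3l overlapped, and mice 4 and 5 were already high at day 2. The direction in these mice thus rests on the scaling for Rpl13 and, in 1 of them, for Rpl3l.

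Rpl14, whose day 2 values are given above, was at 0, 1.41, 1.81, 1.67 and 0.925 CPM with AR420626 at day 6 (log2 fold change -3.53, adjusted p = 0.017 from edgeR). Rpl7l1, which acts in the assembly of the large subunit, was at 31.3, 31.6, 29.6, 35.2 and 21.5 at day 2 and 5.00, 2.82, 1.81, 3.34 and 1.85 at day 6 (-2.24, adjusted p = 0.0473 from edgeR). Both fell in 5 of 5 mice without overlap. With AR420626 at day 6, however, Rpl14 had 0 to 2 counts per library and Rpl7l1 had 2 to 6. They passed the filter on low counts through their day 2 values alone. A fall without overlap was thus in part set by the filter and carries little weight. Of the 5 calls, 0 were left without mouse 1 or 2, that of Rpl14 without mouse 3, those of Rpl27 and Rpl13 without mouse 4 and all but that of Rpl7l1 without mouse 5. Without mice 4 and 5 there were 4 calls among 40 genes, all higher. The comparisons with day 2 and with vehicle share libraries, so they do not support each other.

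Other lists of the translation machinery can be read against the same backgrounds. With AR420626 at day 6, where 11.4% of all genes were called either way, 0 of 4 elongation factors and other genes with pyrimidine starts passed, 1 of 25 mitochondrial ribosomal protein genes was lower (Mrpl11) and 1 of 10 genes of nucleolar steps and ribosome assembly was lower (Bop1). From day 2 to day 6 with vehicle, where 17.3% were called either way, 9 of 43 mitochondrial ribosomal protein genes were higher and 2 lower, 3 of 16 assembly genes were higher and 1 lower, and 1 of 11 genes with pyrimidine starts was higher (Eef1d, a subunit of the exchange factor of Eef1a1). With AR420626 over the same time, where 11.2% were called either way, 3 of 40 mitochondrial ribosomal protein genes and 2 of 15 assembly genes were higher. The chromosome 16 genes Rpl24 and Rpl35a rose with vehicle over time by log2 fold changes of 4.74 (adjusted p = 0.0059 from edgeR) and 4.22 (adjusted p = 0.0318 from edgeR). The single genes named here were chosen after their values were seen.

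**Figure D5:**
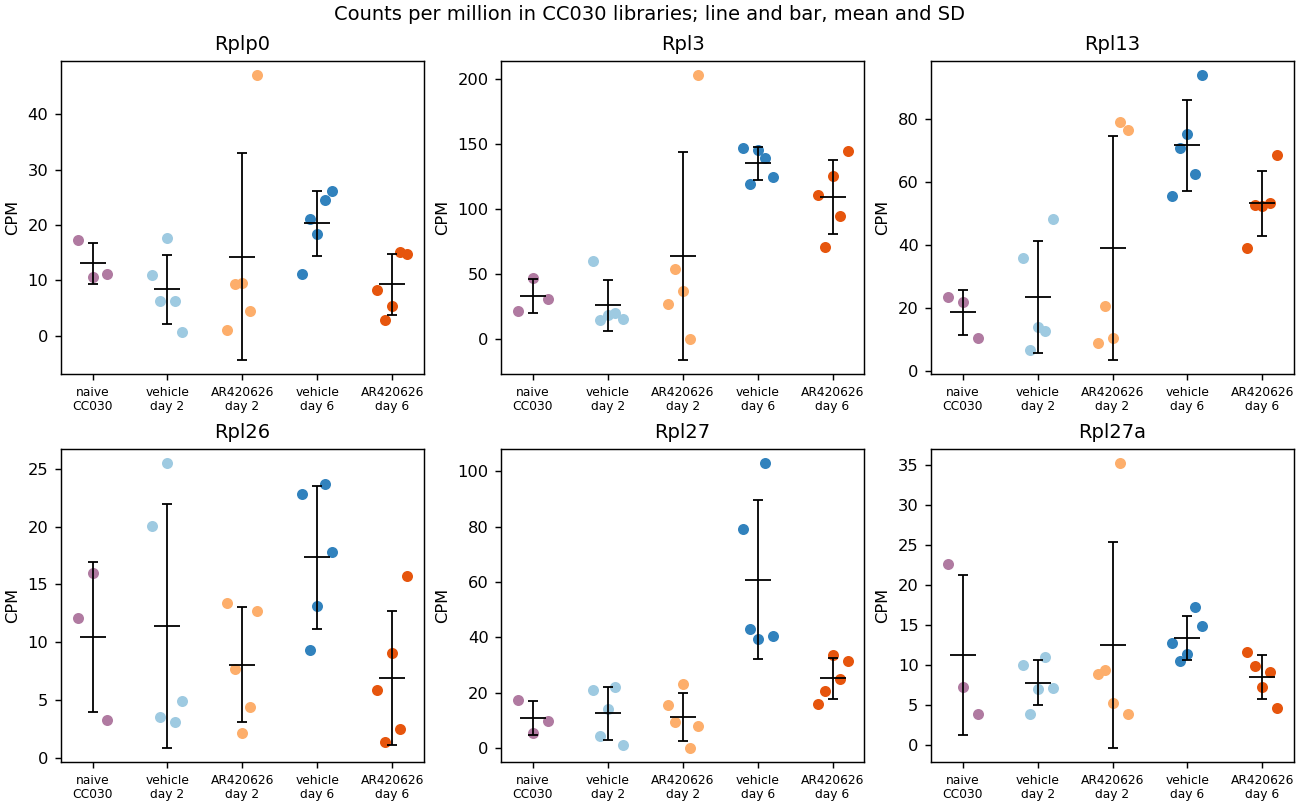
CPM of ribosomal protein genes that passed a test in cultured CC030 ILC2s, 1 point per mouse, with vehicle and AR420626 at day 2 and day 6. Rpl27 and Rpl3 sit higher at day 6 than at day 2 with vehicle in every mouse, and Rpl27 is lower with AR420626 than with vehicle at day 6 in every mouse.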

How the data were processed

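Bulk RNA-seq was read from 26 libraries, grouped by their deposited labels. The authors deposited raw counts per gene, not normalized. Per the submitters' processing notes and the study's methods, reads were checked with FastQC, trimmed with fastp, aligned with STAR and counted with HTSeq, C57BL/6J on mm10 and CC030 on an mm9 reference pseudogenome converted by lapels to mm10. The annotation, and how reads with several matches were counted, are not given in the sources used here. The 5 summary lines of HTSeq were left out of library sizes and tests. Symbols and positions are from GENCODE vM21 on GRCm38, which held 55141 of the 55401 identifiers.

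Counts were filtered with filterByExpr, normalized by TMM and tested with the quasi-likelihood test of edgeR 4.0.16 in R 4.3.3, with p adjusted by the Benjamini-Hochberg method over all genes tested at 0.05. A gene could pass filterByExpr through the group where it was high alone, so lack of overlap between groups carries little weight for such genes. The SE of a log2 fold change was computed from its F statistic. Levels, copies and sequence matches were computed with Python 3.11.15, pandas 2.3.3, numpy 2.4.6 and scipy 1.17.1. By the labels, each cultured mouse number recurs in every condition, so mouse was a block there. Correlations of deviations between libraries of the same mouse were -0.329 to 0.311. The naive strains share only a replicate number. Whether libraries of a group differ by more than technical spread was taken from the labels, which name separate mice. Fits were run on simulated counts in which few genes changed, as many up as down. Between strains most genes tested were called, mainly in one direction, so that run says little of the strain comparison. Alternatives were DESeq2 1.42.0, its size factors in edgeR, other filters on low counts, protein-coding genes alone, the block added or removed, all cultured libraries in one fit, and each replicate left out.

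Named genes are the reference genes Rplp0, Rpl4 and Rps3, the highest and lowest levels, paralogs, and genes called in a comparison. The members and lists were chosen with earlier results of these data known, and the sequence pairs after their values were seen. Some single genes are not reported here. A floor is 3 counts per library and covers counting error only.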

Additional observations from a re-analysis of the deposited data

Results flagged for a closer look

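In the 4 cultured groups, 48 sets of 5 libraries were searched for a value far from the others, of which chance alone marks about 1 in 20, and 6 were found. All 6 were high values at day 2, in the 4 libraries that stood apart in other respects. With AR420626, mouse 5 was at 47.0 CPM for Rplp0 (the others at 1.12 to 9.50) and at 203 for Rpl3 (0 to 53.8). Mouse 4, with the fewest counts, was at 35.2 for Rpl27a (3.92 to 9.39) and at 123 for Rpl14 (14.8 to 21.3). With vehicle, mouse 1 was at 60.3 for Rpl3 (14.4 to 20.4) and mouse 5 at 196 for Rpl3l (9.75 to 54.4).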

How the results depend on the processing

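The direction of all 25 single-gene results was the same under each alternative in which the gene was tested, and 12 of them also kept their side of the threshold. These 12 include results that were never called, namely Rpl14 at day 2 and Rpl14 and Rpl15 for the difference between days. The rest were strain contrasts and, with vehicle over time, Rpl27 and Rplp0. No call for AR420626 at day 6 or for AR420626 over time held throughout. Between strains, 73 ribosomal protein genes were called. With at least 10 counts in every library, which left 39 to test, 25 were. With the replicate block, a pairing by number only, 60 were called, 2 higher and 58 lower.

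With each replicate left out in turn, 61 to 75 genes were called between strains, 0 in each case for AR420626 at day 2 and for the difference between days, 0 to 2 for AR420626 at day 6, 2 to 10 for vehicle over time and 0 to 5 for AR420626 over time. Requiring at least 10 counts in every library left 1 of 3 calls for AR420626 at day 6, 2 of 5 for vehicle over time and 1 of 5 for AR420626 over time. Without the replicate block these were 1, 3 and 3. One fit over the 20 cultured libraries called 0 at day 6, and protein-coding genes alone called 9 for vehicle over time. Without replicates 1 and 5, chosen after seeing the data, vehicle over time had 10. The cause was not tested.

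As a share of nuclear protein-coding counts, ribosomal protein genes took 0.161% in naive CC030, 0.143% and 0.142% with vehicle and AR420626 at day 2, and 0.0916% and 0.0801% at day 6. Restricting genes by C57BL/6J counts changed rho on chromosome 16 to -0.20, 0.16, 0.24, 0.55 and 0.49. Spearman's rho of level with shared windows was -0.57 with windows of 50 bases, -0.69 per coding kilobase, -0.43 with copies added, -0.79 without Rpl3l and Rpl10l and -0.68 to -0.67 without each C57BL/6J library in turn, all chosen after seeing the data. By CPM without length, 2 of the 6 genes with the highest levels in naive C57BL/6J stayed among the 6 highest. Spearman's rho between that order and the order by level was 0.95. In culture, 11 to 44 of the 82 genes had counts high enough to be tested.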
